A study of Mus musculus with 6 samples.

Results

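This section concerns 37 genes that hepatocytes are known for: plasma proteins, apolipoproteins, protease inhibitors, urea cycle and amino acid enzymes, cytochrome P450 enzymes, major urinary proteins and the regulator Hnf4a. They were chosen by name, and all 37 matched an NCBI gene identifier. Of these genes, 36 were among the 17909 identifiers listed in at least 1 of the 6 libraries, and Tat (tyrosine aminotransferase) was listed in none. The libraries held RNA of primary hepatic stellate cells, the vitamin A-storing pericytes of the liver, at day 1 of culture, sequenced on a BGISEQ-500 instrument.

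The HAS2_Tg group (ASMA-HAS2 Tg, replicates 4, 5 and 6) carried a human HAS2 transgene under the alpha smooth muscle actin promoter, which is active in activated stellate cells and in smooth muscle. The Has2_KO group (HSC-specific Has2 KO, replicates 7, 8 and 9) had floxed Has2 deleted by Lrat-Cre, which is active in stellate cells. HAS2 makes the matrix polysaccharide hyaluronan. All mice were male C57BL/6 of 24 weeks. Both groups carried an altered Has2 or HAS2 gene and wild-type cells were not analysed here, so each difference is between the 2 modified genotypes. Livers were perfused with collagenase and pronase, stellate cells were taken from a Nycodenz gradient and cells with Cd11b were removed with microbeads. The cells attached for 4 h and were cultured for 14 h more with 10% serum. The labels do not say whether libraries came from separate or pooled animals, so p-values measure the spread between these libraries, which may be technical.

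Total expected counts were 11961726 to 12231327 in the HAS2_Tg libraries and 12364822 to 12423220 in the Has2_KO libraries. Has2 itself had 847, 889 and 835 counts in HAS2_Tg and 1 count in each Has2_KO library. Markers of the labelled cell type were read, and all 20 genes of a stellate cell list, Lrat, Des and Reln among them, were detected in both groups. Detection alone does not establish identity. All 36 listed hepatocyte genes and every gene of the macrophage and endothelial lists were also detected in Has2_KO. The 20 stellate cell genes held 2.62% to 2.93% of counts in HAS2_Tg and 1.48% to 1.54% in Has2_KO.

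Hepatocytes are the parenchymal cells of the liver and lie next to stellate cells across the space of Disse. They secrete most of the proteins of blood plasma, turn ammonia into urea, make glucose and oxidise drugs. A set of transcription factors, among them HNF4A, the FOXA proteins and the C/EBP proteins, keeps these genes active in them. A few of the genes have other known sources: arginine-making Ass1 is active in many cell types, macrophages express Arg1, and transferrin is made outside the liver too.

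The promoters of 29 of the 37 genes were in the RefSeq table for GRCm38.p6, which gives 250 bases before and 50 after each start. The 4 below are shown because the results turn on these genes: Alb (albumin) and Cyp3a11 (a drug-oxidising cytochrome P450), which were lower in HAS2_Tg, and Itih3 (a hyaluronan-binding heavy chain) and Ass1 (argininosuccinate synthase), which were higher. They were chosen with their values and matches known. Capitals mark every match to a searched motif on either strand.
Alb: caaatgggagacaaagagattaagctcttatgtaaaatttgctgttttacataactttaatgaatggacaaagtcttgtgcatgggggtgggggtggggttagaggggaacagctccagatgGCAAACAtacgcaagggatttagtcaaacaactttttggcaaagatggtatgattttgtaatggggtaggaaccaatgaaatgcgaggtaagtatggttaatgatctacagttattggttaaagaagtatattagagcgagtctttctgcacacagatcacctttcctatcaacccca
Cyp3a11: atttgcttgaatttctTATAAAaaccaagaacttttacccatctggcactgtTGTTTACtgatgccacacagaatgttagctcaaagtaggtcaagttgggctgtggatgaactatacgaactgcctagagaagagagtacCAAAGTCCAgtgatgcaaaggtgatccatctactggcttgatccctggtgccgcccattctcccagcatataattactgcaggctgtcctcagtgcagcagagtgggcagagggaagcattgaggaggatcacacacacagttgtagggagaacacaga
Itih3: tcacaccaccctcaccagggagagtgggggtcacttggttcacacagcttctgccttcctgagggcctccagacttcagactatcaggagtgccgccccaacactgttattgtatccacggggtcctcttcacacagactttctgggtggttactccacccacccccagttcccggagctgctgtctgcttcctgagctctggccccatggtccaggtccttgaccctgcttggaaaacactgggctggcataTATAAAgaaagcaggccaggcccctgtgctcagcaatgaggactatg
Ass1: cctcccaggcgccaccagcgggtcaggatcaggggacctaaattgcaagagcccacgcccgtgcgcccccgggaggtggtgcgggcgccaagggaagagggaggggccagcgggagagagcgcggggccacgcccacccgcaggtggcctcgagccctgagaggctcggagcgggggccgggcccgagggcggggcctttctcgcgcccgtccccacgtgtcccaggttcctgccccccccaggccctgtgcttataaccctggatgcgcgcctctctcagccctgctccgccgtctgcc
The windows lie at chr5:90460620-90460919 (Alb, plus strand), chr5:145879805-145880104 (Cyp3a11, minus strand), chr14:30923538-30923837 (Itih3, minus strand) and chr2:31470020-31470319 (Ass1, plus strand).

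Alb held the FOXA motif TGTTTGC on the other strand. Cyp3a11 held the HNF4 motif CAAAGTCCA, the FOXA motif TGTTTAC and TATAAA. The Itih3 window held TATAAA alone, and the Ass1 window held none of the motifs and was the richest in G and C of the 29, at 74.0%. The median was 49.7% over the 29 genes and 52.8% over all 27025 genes with a promoter. Both strands were searched in windows of 300 bases. TGTTTGC was in 8 of the 29 promoters (27.6%, against 5.76% of all 27025), TGTTTAC in 3 (10.3%, against 4.05%), CAAAGTCCA in 1 (3.45%, against 0.555%) and TATAAA in 9 (31.0%, against 15.7%). The C/EBP palindrome TTGCGCAA was in 0 of the 29 and in 0.207% of all. Such matches describe the letters of these windows and not the binding of a factor.

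The 36 listed genes fell into a few abundant ones and many near the detection limit. Ass1 alone held 91.6% to 92.5% of the counts of the list in HAS2_Tg and 72.0% to 76.2% in Has2_KO. Together the genes took 0.0501%, 0.0444% and 0.0443% of all counts in HAS2_Tg replicates 4, 5 and 6, and 0.0360%, 0.0382% and 0.0356% in Has2_KO replicates 7, 8 and 9. With Ass1, Trf, Itih3 and Itih4 set aside, a choice made after their values were seen, the remaining 32 listed genes summed to 59, 73 and 63 counts in HAS2_Tg, against 682, 891 and 723 counts in Has2_KO. The groups thus did not overlap in either sum, and the order of the groups turned with Ass1. In bulk RNA, fewer cells of a type and less RNA per cell cannot be told apart.

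**Figure D1:**
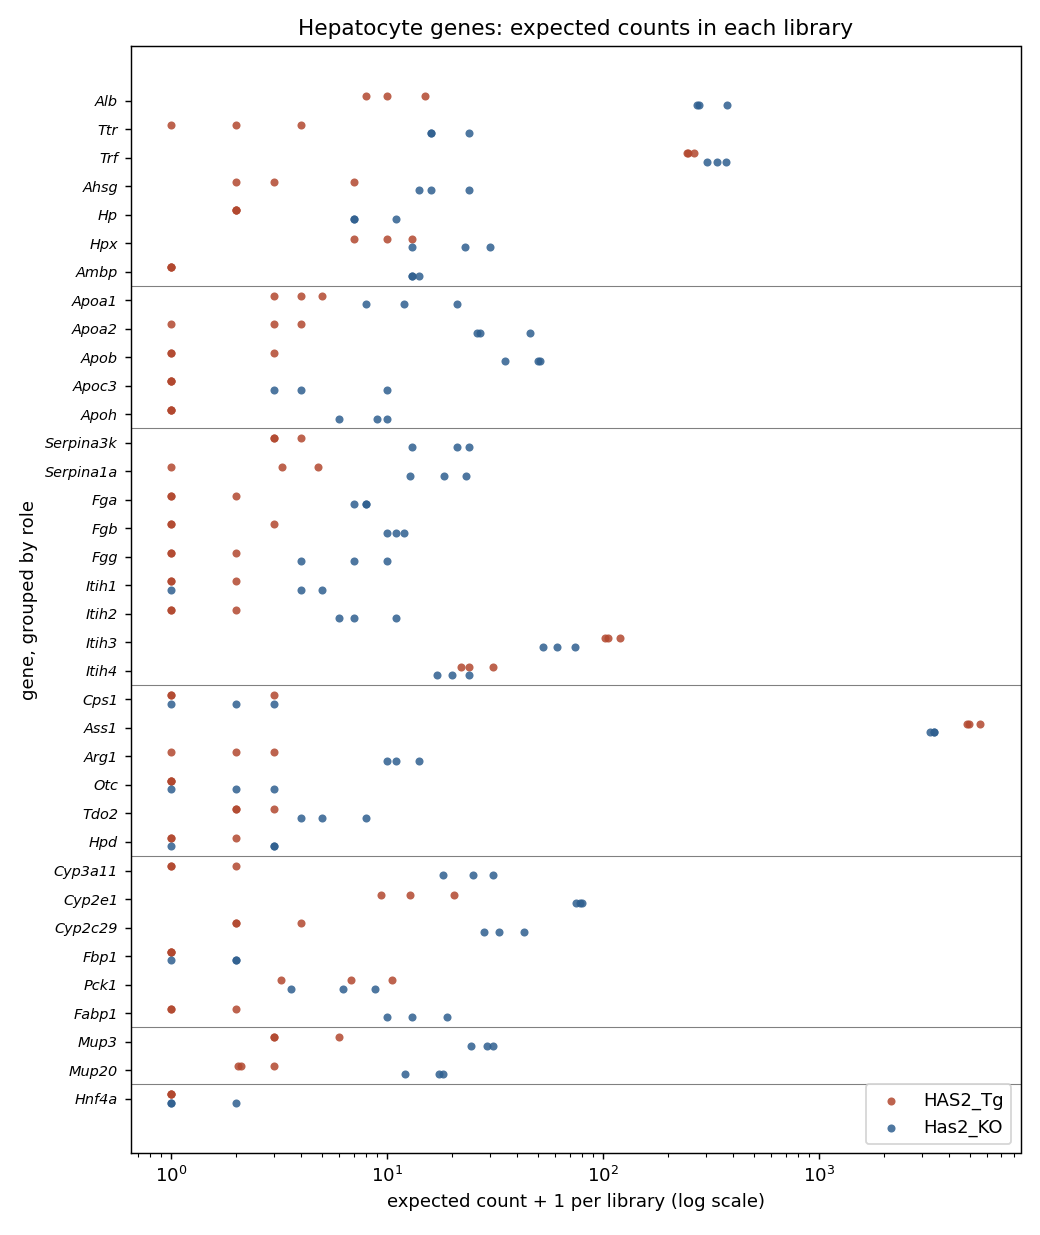
Expected counts of the 36 listed hepatocyte genes in each library, with 1 added and on a log scale, grouped by role; each point is 1 library, HAS2_Tg above Has2_KO in each row. Ass1 has 3255 counts or more in every library, while most genes have at most 50 counts in Has2_KO and a few in HAS2_Tg.

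**Figure D2:**
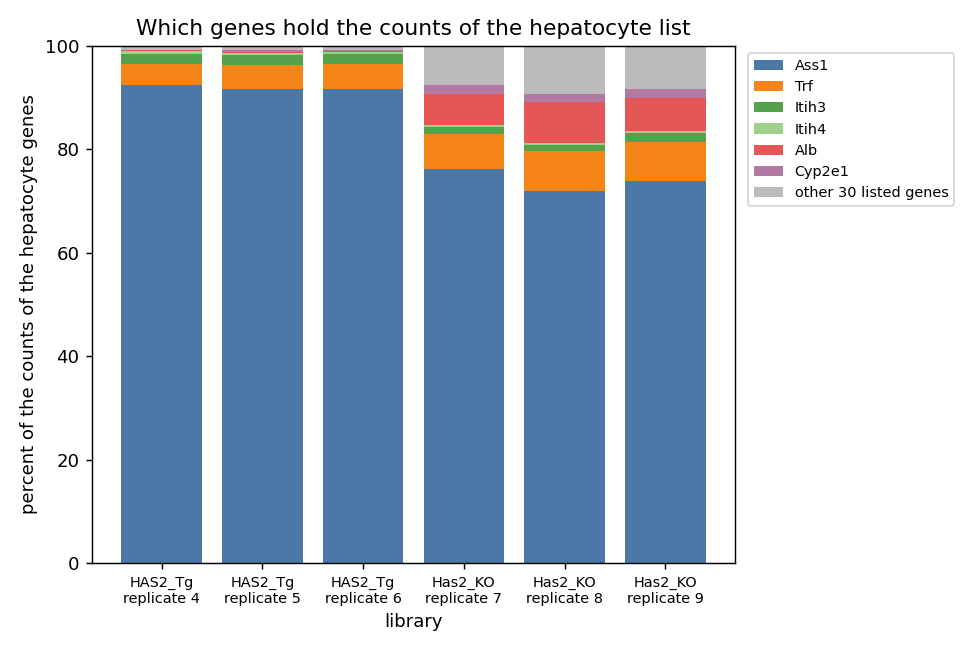
Percent of the counts of the 36 listed hepatocyte genes held by each named gene, with 1 bar per library. Ass1 takes 91.6% to 92.5% in the HAS2_Tg libraries and 72.0% to 76.2% in the Has2_KO libraries, and Alb takes 0.116% to 0.264% in HAS2_Tg and 6.08% to 7.93% in Has2_KO.

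A low-count filter (10 counts in each of 3 libraries of median depth, equal to a CPM, or depth-scaled count, of 0.813) left 18 of the 36 listed genes for testing with edgeR's quasi-likelihood test. Of the 18, 14 were lower and 2 higher in HAS2_Tg at an adjusted p under 0.05, and 2 did not pass. Of 13014 genes tested, 40.7% were called in either direction, 20.5% lower (2673) and 20.2% higher (2625). With library totals in place of TMM factors, 4823 genes were lower and 1477 higher, and of the hepatocyte genes 15 were lower and 2 higher. All 14 genes that were lower had passed the filter through the Has2_KO libraries alone, which partly fixed their direction, so their number is a description. The adjusted p-values given below for these 14 genes have the same limit and are descriptions too. The 4 genes over the filter in both groups were Ass1 and Itih3, which were higher in HAS2_Tg, and Trf and Itih4, which did not pass.

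Counts not scaled for depth were then compared without the filter. Every Has2_KO library total was above every HAS2_Tg total. Over all 36 listed genes, the counts of the 2 groups did not overlap and were lower in HAS2_Tg for 25 genes (69.4%), beside 38.3% of the 17909 listed genes. They did not overlap and were higher in HAS2_Tg for 2 genes, beside 9.35%. Trf was among the 25 lower genes, although its TMM-scaled values overlapped. Of the 18 listed genes under the filter, 11 (61.1%) did not overlap and were lower, beside 12.5% of the 4895 genes under it. These background shares were not matched for abundance, and genes with very few counts cannot separate the groups.

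**Figure D3:**
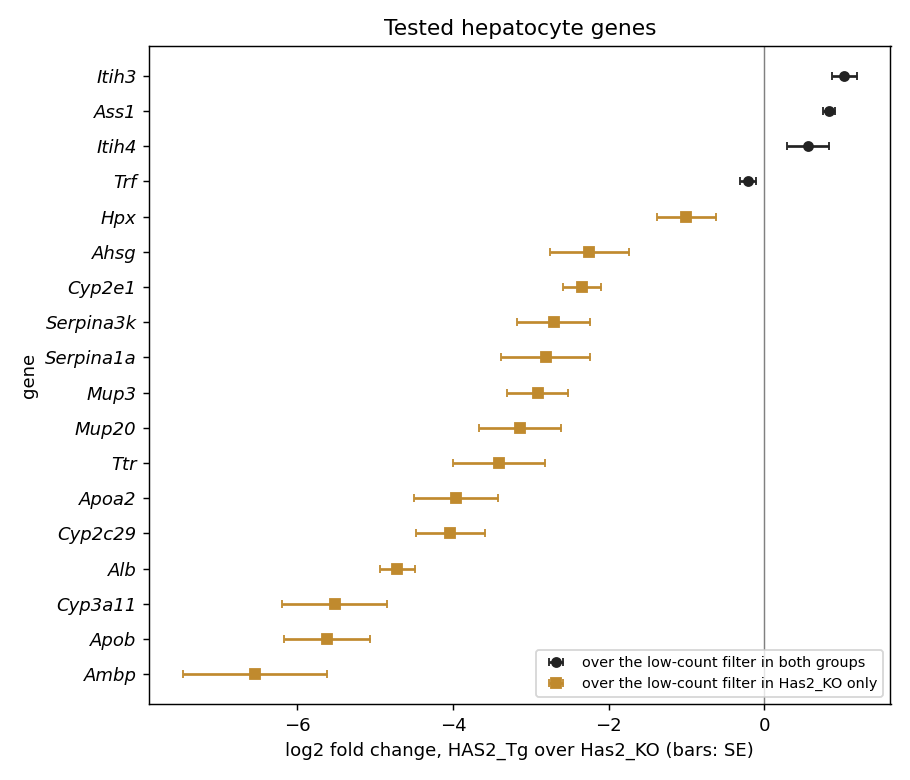
Log2 fold change of HAS2_Tg over Has2_KO with its standard error (SE) for the 18 tested genes; circles are genes over the low-count filter in both groups and squares are genes over it in Has2_KO only. Itih3, Ass1 and Itih4 lie right of 0, Trf just left of it and the 14 squares between -1.002 and -6.54, where the value of Ambp, with no count in HAS2_Tg, depends on the fit's prior.

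Among the plasma proteins called lower, albumin had the most counts in Has2_KO. Alb had 7, 14 and 9 counts in HAS2_Tg, against 271, 376 and 276 in Has2_KO. Every HAS2_Tg library was far below every Has2_KO library. The level was 0.407 ± 0.146 FPKM in HAS2_Tg and 12.2 ± 2.31 FPKM in Has2_KO (SD, n = 3 each). FPKM values are scaled for length, so that genes can be set beside each other. The log2 fold change was -4.72 (SE 0.23, edgeR adjusted p = 3.44e-10). Alb had entered the test through Has2_KO alone, so this p-value is a description.

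Ttr, the thyroxine and retinol-binding protein carrier transthyretin, had 1, 3 and 0 counts in HAS2_Tg and 15, 23 and 15 in Has2_KO (log2 fold change -3.41, SE 0.59). Ahsg, the mineral-binding glycoprotein fetuin-A, had 6, 1 and 2 counts in HAS2_Tg and 13, 23 and 15 in Has2_KO (-2.25, SE 0.51). Both were lower in every HAS2_Tg library than in any Has2_KO library. Ambp, the precursor of alpha-1-microglobulin and bikunin, had no count in HAS2_Tg and 12, 12 and 13 counts in Has2_KO. Its sum was 10.7-fold lower when HAS2_Tg is set to a floor of 3 counts over its libraries. Bikunin is the light chain of inter-alpha-inhibitor, to which the heavy chains encoded by Itih1, Itih2 and Itih3 are joined.

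Hpx, the haem carrier hemopexin, was the weakest of the 14. It had 6, 9 and 12 counts in HAS2_Tg and 12, 29 and 22 in Has2_KO, so the groups touched at 12. Its log2 fold change was -1.002 (SE 0.38, edgeR adjusted p = 0.0497), and the call ended without HAS2_Tg replicate 4 or 5 (adjusted p = 0.127 and 0.112) or Has2_KO replicate 8 or 9 (0.227 and 0.122). The DESeq2 Wald test did not call it either (adjusted p = 0.104). Hp, the haemoglobin carrier haptoglobin, stayed under the filter with 1 count in each HAS2_Tg library and 10, 6 and 6 in Has2_KO.

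Trf, the iron carrier transferrin, behaved unlike albumin. It had 243, 247 and 263 counts in HAS2_Tg and 301, 371 and 337 in Has2_KO, and it stood at 8.91 ± 0.29 FPKM in HAS2_Tg and 11.6 ± 1.19 FPKM in Has2_KO (SD, n = 3 each). Raw counts did not overlap between the groups, while TMM-scaled values did. The log2 fold change of Trf was -0.21 (SE 0.10) and did not pass (edgeR adjusted p = 0.11). With library totals it was -0.38 and passed (edgeR adjusted p = 0.00583), so its call depends on scaling. That scaling moved the median of all genes by -0.17 on the log2 scale. In Has2_KO the levels of Alb and Trf did not differ beyond their spread, while in HAS2_Tg Trf was the second most abundant of the genes per length and Alb ranked 7.

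Apolipoproteins, which coat lipoprotein particles, had at most 4 counts in any HAS2_Tg library. Apob, the structural protein of very low density lipoprotein, had 0, 0 and 2 counts in HAS2_Tg and 34, 49 and 50 in Has2_KO, a 57.4-fold lower group sum (95% exact interval 15.6 to 479; edgeR adjusted p = 8.91e-07). Apoa2, a protein of high density lipoprotein, had 2, 0 and 3 counts in HAS2_Tg and 26, 45 and 25 in Has2_KO (log2 fold change -3.96, SE 0.53). The groups lay apart for both. Apoa2 overlaps Tomm40l in the annotation, and no strand setting is given in the sources used here, so reads of the pair may not be told apart.

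The other 3 apolipoproteins were under the filter, with groups that did not overlap. Apoa1, the main protein of high density lipoprotein, had 4, 3 and 2 counts in HAS2_Tg and 7, 20 and 11 in Has2_KO. Apoc3, an inhibitor of lipoprotein lipase, had none in HAS2_Tg and 2, 3 and 9 in Has2_KO, and Apoh, which binds phospholipids, none in HAS2_Tg and 5, 9 and 8 in Has2_KO. With HAS2_Tg set to the floor of 3 counts, the sums were 4.03-fold lower for Apoc3 and 6.33-fold lower for Apoh. These values leave out counting error in Has2_KO. Apoa1 and Apoc3 are neighbours on chromosome 9, separated by 2580 bases.

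The 3 fibrinogen chains, which form the clot, were all under the filter and lower in HAS2_Tg by count. Fga had 0, 0 and 1 counts in HAS2_Tg and 7, 6 and 7 in Has2_KO. Fgb had 0, 2 and 0 in HAS2_Tg and 11, 9 and 10 in Has2_KO, and Fgg had 1, 0 and 0 in HAS2_Tg and 9, 3 and 6 in Has2_KO. Groups did not overlap for any chain. The genes lie side by side on chromosome 3, with gaps of 11096 and 8618 bases. The scaled ratios of group sums were 17.3 for Fga, 12.9 for Fgb and 15.5 for Fgg, and their 95% exact intervals overlapped (2.76 to 715.8, 3.29 to 111.8 and 2.45 to 647.6).

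The serpins, plasma inhibitors of serine proteases, were also lower in HAS2_Tg. Serpina3k had 3, 2 and 2 counts in HAS2_Tg and 12.1, 20.1 and 22.9 in Has2_KO (log2 fold change -2.70, SE 0.47). Serpina1a, an alpha-1-antitrypsin, had 0, 2.25 and 3.81 counts in HAS2_Tg and 22.1, 11.8 and 17.3 in Has2_KO (-2.81, SE 0.57). Both belong to clusters of related paralogs and had fractional counts, as when reads are shared out between copies, so both values are uncertain. Of the 36 listed genes, 9 had fractional counts in at least 1 library.

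Itih1, Itih2 and Itih3 encode heavy chains of inter-alpha-inhibitor, serum proteins that are transferred onto hyaluronan and stabilise it. Itih4 is a related gene. The Itih genes did not move together. Itih3 had 119, 101 and 105 counts in HAS2_Tg and 60, 52 and 73 in Has2_KO, with no overlap. It stood at 3.16 ± 0.28 FPKM in HAS2_Tg and 1.75 ± 0.31 FPKM in Has2_KO (SD, n = 3 each), a log2 fold change of 1.02 (SE 0.16, edgeR adjusted p = 0.000124). Each alternative run gave a positive value that passed, from 0.60 to 1.16.

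Itih4 had 30, 21 and 23 counts in HAS2_Tg and 19, 16 and 23 in Has2_KO, so raw counts overlapped. After TMM scaling the groups did not overlap, and HAS2_Tg was higher. The log2 fold change of Itih4 was 0.56 (SE 0.27) and did not pass (edgeR adjusted p = 0.108). Itih1 had 0, 0 and 1 counts in HAS2_Tg and 3, 0 and 4 in Has2_KO, and Itih2 0, 0 and 1 in HAS2_Tg and 6, 10 and 5 in Has2_KO. By count, Itih2 was lower in each HAS2_Tg library than in any Has2_KO library, and Itih1 was at the detection limit in both groups. Itih4, Itih3 and Itih1 are adjacent on chromosome 14, with gaps of 6585 and 5392 bases, and Itih2 lies on chromosome 2.

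Of the 7 urea cycle and amino acid enzymes, Ass1 was tested, 5 were under the filter and Tat was not listed. Ass1 had 5572, 4865 and 4964 counts in HAS2_Tg and 3394, 3413 and 3255 in Has2_KO. The groups did not overlap, and Ass1 was the most abundant of the 36 genes per length in both, at 262 ± 20.1 FPKM in HAS2_Tg and 167 ± 4.14 FPKM in Has2_KO (SD, n = 3 each). Its log2 fold change was 0.83 (SE 0.08, edgeR adjusted p = 7.67e-07), and between 0.65 and 0.88 over the alternatives, all of which called it.

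Of the other urea cycle genes among the 37, 2 were barely detected in either group. Cps1, which makes carbamoyl phosphate and is one of the abundant mRNAs of hepatocytes, had 2, 0 and 0 counts in HAS2_Tg and 1, 2 and 0 in Has2_KO. Otc, which makes citrulline, had none in HAS2_Tg and 0, 1 and 2 in Has2_KO. No difference was detectable at this depth for these genes. Arg1, the last enzyme of the cycle, had 0, 2 and 1 counts in HAS2_Tg and 9, 10 and 13 in Has2_KO, a scaled ratio of 9.21 (95% exact interval 2.88 to 47.0). Macrophages, which express Arg1, had marker shares (percent of all counts) from 0.00146% to 0.00171% in HAS2_Tg, against 0.0804% to 0.0863% in Has2_KO, and their part in this value was not tested. Asl, argininosuccinate lyase, which acts on the product of Ass1, is not one of the 37 genes and is given here after its values were seen. It had 465, 379 and 390 counts in HAS2_Tg and 349, 378 and 364 in Has2_KO. Its log2 fold change was 0.39 (SE 0.10, edgeR adjusted p = 0.00646), and with library totals it was 0.22 and did not pass (edgeR adjusted p = 0.0862).

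Among the amino acid enzymes, Tdo2, which opens the ring of tryptophan, had 2, 1 and 1 counts in HAS2_Tg and 3, 4 and 7 in Has2_KO. Hpd, of tyrosine breakdown, had 1, 0 and 0 in HAS2_Tg and 2, 2 and 0 in Has2_KO. The groups did not overlap for Tdo2, although the interval of its ratio included 1 (0.949 to 12.6), and they overlapped for Hpd.

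The 3 cytochrome P450 genes were all lower in HAS2_Tg. Cyp2e1, which oxidises ethanol, had 8.38, 19.4 and 11.8 counts in HAS2_Tg and 77.1, 73.8 and 79.2 in Has2_KO (log2 fold change -2.34, SE 0.25, edgeR adjusted p = 2.09e-06). Cyp3a11 had 1, 0 and 0 counts in HAS2_Tg and 24, 30 and 17.3 in Has2_KO, a 61.5-fold lower group sum (95% exact interval 10.7 to 2455). Cyp2c29 had 1, 1 and 3 counts in HAS2_Tg and 32, 42 and 27.0 in Has2_KO (log2 fold change -4.03, SE 0.44). None of the 3 overlapped between groups. Each had fractional counts in 1 library or more, so some reads were divided with other sequences, and which ones was not tested.

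Fabp1, the fatty acid-binding protein of liver, had 0, 0 and 1 counts in HAS2_Tg and 9, 18 and 12 in Has2_KO, a 33.7-fold lower sum (95% exact interval 5.70 to 1364) in a gene under the filter. Pck1 and Fbp1 are enzymes of glucose synthesis. Pck1 had 9.51, 5.81 and 2.21 counts in HAS2_Tg and 2.58, 5.27 and 7.83 in Has2_KO, with overlap, and was the 1 gene under the filter whose sum was not lower in HAS2_Tg. Fbp1 had none in HAS2_Tg and 0, 1 and 1 in Has2_KO, too few to show a difference.

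The major urinary proteins, pheromone carriers that mouse liver secretes, were lower in HAS2_Tg. Mup3 had 2, 5 and 2 counts in HAS2_Tg and 28.0, 29.8 and 23.4 in Has2_KO (log2 fold change -2.91, SE 0.39). Mup20, also known as darcin, had 1.11, 2 and 1.05 counts in HAS2_Tg and 16.4, 17.2 and 11.1 in Has2_KO (-3.14, SE 0.52). Both differences exceeded the spread between libraries. The values are uncertain because both genes had fractional counts, as when reads are shared out between related genes. Mup20 also overlaps the pseudogene Mup-ps21 in the annotation. Hnf4a, the nuclear receptor that maintains hepatocyte genes, had no count in HAS2_Tg and 1, 0 and 0 in Has2_KO.

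By counting error alone, the fold differences of some of the genes that were lower lay apart from one another. The exact intervals used here leave out the spread between libraries. The 95% exact interval of the scaled ratio of group sums was 18.5 to 39.6 for Alb, 3.54 to 7.13 for Cyp2e1 and 1.27 to 3.29 for Hpx, and these did not overlap one another. Set per length against Alb in the same library, Cyp2e1 stood at 1.38, 1.63 and 1.53 times Alb FPKM in HAS2_Tg and at 0.331, 0.228 and 0.335 times in Has2_KO. Mup3 stood at 0.655, 0.825 and 0.500 times Alb in HAS2_Tg and at 0.235, 0.181 and 0.193 times in Has2_KO. Of the 13 genes other than Alb that were lower in HAS2_Tg, the ratio to Alb was higher in every HAS2_Tg library than in any Has2_KO library for 6, lower for Ambp, which had no count in HAS2_Tg, and overlapped between the groups for 6, Apoa2, Apob, Ttr and Cyp2c29 among them. The interval of the ratio of group sums overlapped that of Alb for 7 of the 13 and lay below it for 5. These ratios rest on 7 to 14 Alb counts per HAS2_Tg library.

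Within Has2_KO, the ratio to Alb varied across the 3 libraries by factors of 1.13 (Ttr) to 2.56 (Serpina1a) among the 13 genes other than Alb that were lower in HAS2_Tg. It varied by 1.21 for Cyp2c29, 1.30 for Mup3 and 1.32 for Apoa2. Has2_KO replicate 8 had the highest count of 9 of the 14 genes that were lower in HAS2_Tg, replicate 9 of 4 and replicate 7 of 1. Cps1 stood at 0.00186, 0.00202 and 0 times Alb in Has2_KO replicates 7, 8 and 9.

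Other genes active in hepatocytes were read from 5 further lists, whose genes need not be limited to hepatocytes. Gstp1 and Nr2f2 of these lists had 11131 and 16482 counts over the HAS2_Tg libraries. Of 50 other plasma proteins, 49 were listed and 15 tested, of which 9 were lower and 2 higher in HAS2_Tg (10 and 0 with library totals; median log2 fold change -1.63, beside -0.01 over all genes tested). Gc, the vitamin D-binding protein, had no count in HAS2_Tg and 41, 79 and 62 in Has2_KO, 52.4-fold lower at the floor of 3 counts. Cfb, a complement factor, had -2.55 (SE 0.09) and Cp, the copper oxidase ceruloplasmin, -1.63 (SE 0.08). Cfb and Cp still had 548 and 2902 counts over the HAS2_Tg libraries, unlike Gc.

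Among the enzymes, calls went in both directions. Of 15 tested amino acid, urea and glucose enzymes (40 on the list), 4 were lower and 4 higher (26.7% each, beside 20.5% and 20.2% of all genes tested; 6 and 1 with library totals; median -0.20). Aass, of lysine breakdown, had 1 count in each HAS2_Tg library and 188, 216 and 157 in Has2_KO (161.5-fold lower, 95% exact interval 55.0 to 785.3), Slc25a13, a mitochondrial aspartate carrier, had -1.87, and Cdo1, which oxidises cysteine, was higher at 1.70. Of 19 tested cytochrome, conjugation, bile acid and lipid genes (48 on the list), 8 were lower and 4 higher (42.1% and 21.1%; 11 and 3 with library totals; median -0.20). Among them Cyp2a5, a coumarin hydroxylase, had 0, 0 and 1 counts in HAS2_Tg and 130, 230 and 154 in Has2_KO, Angptl4, an inhibitor of lipoprotein lipase, had -1.83 and Gstp1, a glutathione transferase, -0.87.

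Transcription factors were read next. Of 16 tested (27 on the list), 6 were higher and 3 lower in HAS2_Tg (37.5% and 18.8%, beside 20.2% and 20.5% of all genes tested; 4 and 3 with library totals; median 0.26, or 0.08). Nr2f2, a nuclear receptor, had 0.85, and Nr1h4, the bile acid receptor FXR, 0.88 with 1692, 1713 and 1604 counts in HAS2_Tg and 1116, 940 and 1106 in Has2_KO. Nr5a2 was lower, with 0, 1 and 0 counts in HAS2_Tg and 37, 34 and 30 in Has2_KO. Foxa1 and Foxa2 had no count in HAS2_Tg and were detected in Has2_KO, at levels not given here, so no difference is read from them. Of the 18 junction and epithelial keratin genes, 5 were tested and all 5 were lower (median -4.70). Krt18 was 34.5-fold lower at the floor of 3 counts, Krt8 34.3-fold (95% exact interval 11.4 to 168.4) and Ceacam1, an adhesion molecule, had -4.70. In these 5 lists, 7, 4, 5, 2 and 3 tested genes, in the order given, had passed the filter through Has2_KO alone.

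**Figure D4:**
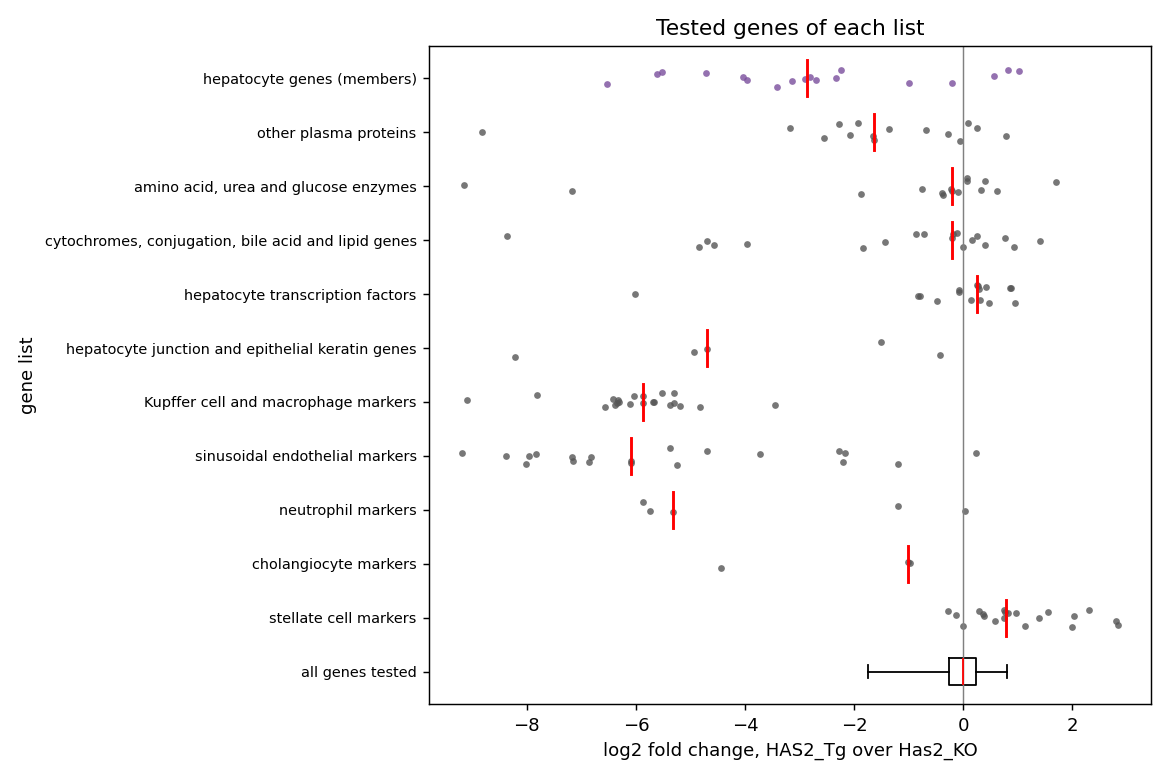
Log2 fold change of HAS2_Tg over Has2_KO for the tested genes of each list, with 1 point per gene and a red line at the list's median; the box at the bottom spans the quartiles of all 13014 genes tested, with whiskers at the 5th and 95th percentiles. The hepatocyte genes have a median of -2.86, the macrophage markers -5.87 and the stellate cell markers 0.79.

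Markers of other liver cells were read in the same libraries, beside 20.5% lower and 20.2% higher over all genes tested. Of the tested markers, 17 of 21 macrophage, 13 of 20 endothelial, 3 of 5 neutrophil and 1 of 3 cholangiocyte genes had passed the filter through Has2_KO alone, which partly fixed their direction, so these counts and medians are descriptions. Kupffer cell and macrophage markers (22 listed, 21 tested, 21 lower) held the shares given beside Arg1 (median -5.87), with Clec4f and Timd4 at 0 in HAS2_Tg. Of 20 tested sinusoidal endothelial markers, 19 were lower and 1 higher, or 19 and 0 with library totals. Their median was -6.10, or -5.72 with genes at 0 set to their floor. They held 0.09999% to 0.110% of counts in HAS2_Tg and 0.237% to 0.246% in Has2_KO, with Emcn and Gpihbp1 at 0 in HAS2_Tg. Neutrophil markers (10 of 13 listed, 5 tested, 4 lower; median -5.31) held 0.00282% to 0.00332% in HAS2_Tg and 0.00529% to 0.00562% in Has2_KO, with S100a8 and Camp at 0 in HAS2_Tg and Ngp at 0 in Has2_KO. Cholangiocyte markers (11 of 13 listed, 3 tested, 3 lower; median -1.01) held 0.00466% to 0.00511% in HAS2_Tg and 0.0122% to 0.0134% in Has2_KO, with Cftr, Epcam and Tspan8 at 0 in HAS2_Tg. Anxa4 alone had 566, 556 and 528 of these 614, 597 and 570 counts in HAS2_Tg. In Has2_KO it had 1198, 1291 and 1295 of 1508, 1662 and 1606. The endothelial list summed to 13254, 12988 and 12230 counts in HAS2_Tg. Of these Cdh5 had 15, 26 and 19 and Mrc1 3, 5 and 4, so that share rests on other genes of the list. Of 20 stellate cell markers 17 were higher and 0 lower in HAS2_Tg (14 and 1 with library totals). A marker at 0 in HAS2_Tg can also be near 0 in Has2_KO, so these zeros alone show no difference. The part of these cell types in the differences of the hepatocyte genes was not tested.

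**Figure D5:**
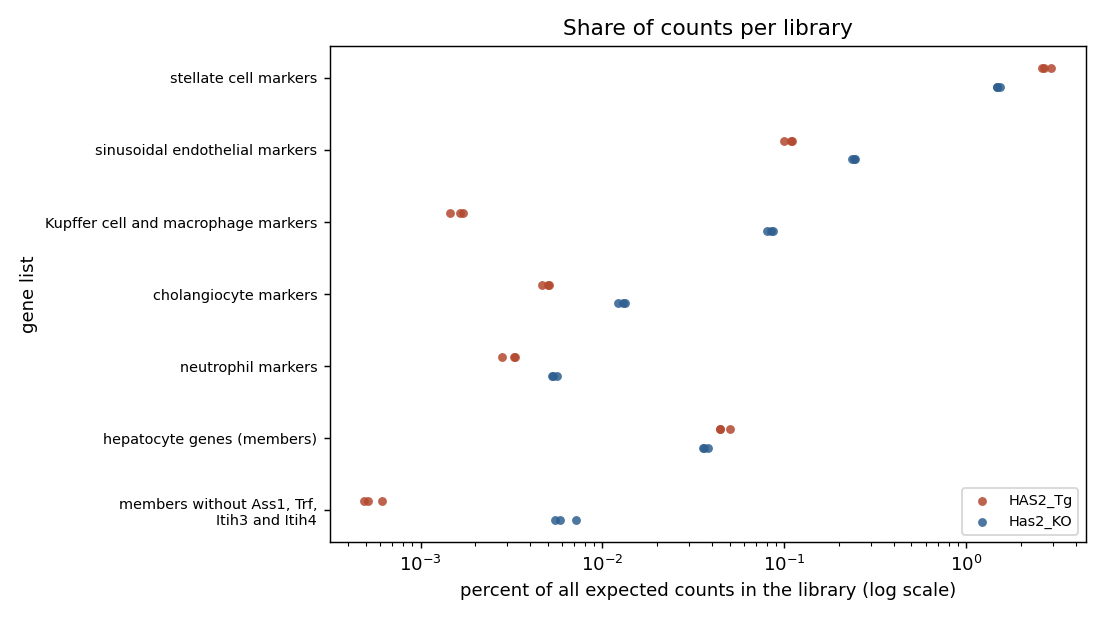
Percent of all expected counts per library held by each marker list and by the hepatocyte genes, on a log scale; each point is 1 library, HAS2_Tg above Has2_KO in each row. The hepatocyte genes together are higher in HAS2_Tg, and without Ass1, Trf, Itih3 and Itih4 they are lower, as are the macrophage, endothelial, neutrophil and cholangiocyte markers. Anxa4 holds most of the cholangiocyte counts.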

How the data were processed

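Stellate cell RNA was measured in 6 libraries, 3 per genotype, grouped by their titles. Each file holds 1 library. Expected counts, deposited by the authors as estimates that need not be whole, were made with RSEM on mm10 per the submitters' processing notes. Its version is not given here by any source used. The FPKM values were scaled by the authors for gene length and depth, per the file headers, with 0.01 as the lowest value. Gene length is given in the deposited files in bases. A gene missing from a library was set to 0. For Apob, the longest of the genes at 13931 bases, a listing minimum of 0.01 FPKM could hide at most 0.865 counts. Names came from RefSeq tables of GRCm38, the assembly of mm10, which matched 17857 of 17909 identifiers.

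Rounded expected counts passed filterByExpr and TMM scaling and were fitted over all 13014 genes with edgeR 4.0.16 (limma 3.58.1, DESeq2 1.42.0, R 4.3.3), with the two-sided quasi-likelihood test (robust), adjusted by Benjamini-Hochberg over all genes and called at 0.05. The contrast was HAS2_Tg minus Has2_KO. Each SE was taken as the absolute log2 fold change over the square root of F. A group with no counts was given 3 counts in all as its floor, and other ratios of group sums have 95% exact intervals, both scaled by TMM-adjusted totals and stated as Has2_KO over HAS2_Tg. Such intervals cover counting error only, since without molecular identifiers reads may be copies of 1 molecule. A floor covers it for HAS2_Tg only and takes the Has2_KO sum as exact, so fold values from a floor are no strict bounds. Replicate pairs differed beyond sampling noise (chi-square per degree of freedom of 2.31 to 31.6), so each library counted once in the fit. The spread was unequal: HAS2_Tg replicate 4 stood at 22.8 and 31.6 against replicates 5 and 6. The pair of replicates 5 and 6 stood at 6.24, and the Has2_KO pairs at 2.31 to 3.17. The exact intervals pool the reads of a group's libraries, leave this spread out and can be too narrow. The fit was tested on simulated data.

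The genes, the lists and the rule for named genes were chosen with earlier results of these data known. The rule names every one of the 37 genes and, of each hepatocyte list, up to 3 called genes by adjusted p. Motifs were searched with Python 3.11.15. Alternatives were DESeq2 size factors, library totals, upper-quartile factors, the fit with every listed gene, a minimum of 1 CPM throughout a group with a mean of 5 CPM, DESeq2's Wald test, limma on FPKM (log2 after adding 1 or 0.1, where at least 3 libraries reached an FPKM of 1, and once with all genes), each library left out and an adjusted p of 0.01. A planned comparison of protein sequences was not run, and the results for 1 planned motif family are not reported here.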

Additional observations from a re-analysis of the deposited data

How the results depend on the processing

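No paired analysis was possible because the groups share no replicate numbers. The 2 hepatocyte genes higher in HAS2_Tg were called under every alternative, and leaving out each library gave 13 to 16 lower genes, against 14 with all 6. The number of lower genes depended on the filter, since most of them have few counts: 24 without it, 1 of 4 tested under the stricter filter, 8 of 10 tested with limma on log2(FPKM + 1) and again on log2(FPKM + 0.1), and 26 with limma and no filter. Of 238 values of single tested genes under the alternatives, none changed sign, 229 kept their side of the threshold, 5 lost it (all Hpx) and 4 gained it (all Trf).

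Over all genes, the counts lower in HAS2_Tg moved to 4823 with library totals, 4198 and 4138 with limma on log2(FPKM + 1) and log2(FPKM + 0.1) and 4596 with limma and no filter, and the counts higher to 1477, 1399, 1376 and 1366. TMM gave 2673 lower and 2625 higher, and library totals moved the median of all genes by -0.17. The share of counts held by the hepatocyte genes was 0.00372% in HAS2_Tg and 0.00955% in Has2_KO without Ass1, so that its direction between groups turned. In Has2_KO it was 0.0341% without Alb and 0.0345% over TMM-adjusted totals. Depth limits the genes under the filter, 12 of which had under 10 counts in every Has2_KO library, and counting error dominates their values.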
